A study of Mus musculus with 4 samples.

Results

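The blood-brain barrier genes described here were 10 of the 31053 genes in the deposited matrices, namely Cldn5, Ocln, Slco1a4, Slco1c1, Abcb1a, Abcg2, Slc2a1, Mfsd2a, Slc7a5 and Ly6c1. They were picked by name for their known roles, with earlier results of these data known. Their levels were read in the ventromedial prefrontal cortex (vmPFC) of male C57BL/6 mice, all of which had received barcoded rAAV2-retro viruses carrying EGFP in 5 projection targets of this cortex. The labels give an age of 8 weeks, which per the study's methods was the age at injection, and the tissue was taken some weeks later. Unsorted cells made up 3 libraries, whose titles name mouse 1, mouse 2 and mouse 3, and cells sorted for EGFP from another 3 mice were pooled into 1 library. No uninjected mouse was among the samples, so every value comes from virus-injected brain. The labels name all 4 libraries retrogradely labelled vmPFC neurons, but the unsorted matrices hold the other cell types of the tissue too.

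Endothelial cells were taken as unsorted cells that were absent from the authors' list of excitatory neurons, had at least 3 UMIs (unique molecular identifiers, 1 per captured transcript) of Flt1 and Pecam1 together, and had at most 2 UMIs of Slc17a7, Gad1 and Gad2 together. Pericytes were taken by at least 3 UMIs of Kcnj8 and Abcc9, and astrocytes by at least 3 UMIs of Aqp4 and Gja1, under the same limit on neuronal genes. Cells that met more than 1 of these gates were left out of all groups. Of 19472 unsorted cells that passed the filter, 1702 were endothelial (652, 540 and 510 in mouse 1, 2 and 3), 359 were pericytes and 489 were astrocytes, and 7765 were the authors' excitatory neurons. The 12 fixed endothelial markers, such as the receptor genes Tek and Kdr and the junction gene Cdh5, summed to 5817 to 6027 CPM (UMIs of a gene as a part of all UMIs summed in that group and library, scaled to a total of 1000000) in endothelial cells. In pericytes they summed to 755 to 802 CPM and in astrocytes to 12.6 to 31.0 CPM, and 12 of 12 were higher in endothelial cells in each fit. The pericyte markers summed to 2421 to 3253 CPM in endothelial cells against 31706 to 32685 CPM in pericytes, and the astrocyte markers to 584 to 706 CPM in endothelial cells and 7894 to 7944 CPM in pericytes against 22706 to 24413 CPM in astrocytes. Microglia markers summed to 596 to 2306 CPM in pericytes against 574 to 656 in endothelial cells, with 6 of 8 called lower in endothelial cells. Fibroblast markers summed to 200 to 217 CPM in pericytes against 10.1 to 26.5, with 3 of 3 tested called lower.

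The unsorted libraries held 83065993 to 87841541 UMIs each. A median endothelial cell carried 2792.5 to 3096 UMIs in the 3 libraries, a median pericyte 2296 to 2446.5, a median astrocyte 3425.5 to 3453 and a median excitatory neuron 21362 to 23213. Levels are therefore given as CPM of the UMIs summed over all cells of a group in a library. Shares of cells with a UMI are given after each cell was thinned to 2000 UMIs, which left out 307 of the 1702 endothelial cells. Pairs of unsorted libraries shared 11 to 30 cell barcodes. The titles and the study's methods give 1 mouse for each unsorted library. The fits took out differences between libraries, so the p-values measure how the difference between cell groups varies over these 3 libraries.

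The capillary wall of the brain is closed by tight junctions between neighbouring endothelial cells, in which claudin-5 (Cldn5) is the main sealing strand protein and occludin (Ocln) a further transmembrane protein. Because little can then pass between the cells, nutrients enter through carriers in the endothelial membranes, glucose by Slc2a1 (GLUT1) and large neutral amino acids by Slc7a5 (LAT1). The organic anion carriers Slco1a4 and Slco1c1 move drugs, steroid conjugates and thyroid hormone, while the ATP-driven pumps Abcb1a (P-glycoprotein) and Abcg2 (BCRP) return many drugs to the blood. Mfsd2a carries lysophospholipids with long-chain fatty acids and restrains vesicular transport across the cell. Ly6c1 codes for a small GPI-anchored surface protein that is widely used as a mark of mouse brain endothelium.

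In the GENCODE annotation of the mouse genome build GRCm38, to which the deposited gene identifiers belong, all 10 genes are protein-coding. Cldn5 (ENSMUSG00000041378) lies on the plus strand at chr16:18776847-18778262, Ocln on the minus strand at chr13:100496507-100552718, and Ly6c1 on the minus strand at chr15:75044018-75048830. Both organic anion carriers lie on chromosome 6, Slco1a4 on the minus strand at chr6:141805440-141856199 and Slco1c1 on the plus strand at chr6:141524368-141570177. Abcg2 lies on the same chromosome, on the plus strand at chr6:58584523-58695676. Abcb1a lies on the plus strand at chr5:8660077-8748575 and Slc7a5 on the minus strand at chr8:121881150-121907694. Slc2a1 and Mfsd2a both lie on chromosome 4, Slc2a1 on the plus strand at chr4:119108711-119137983 and Mfsd2a on the minus strand at chr4:122946850-122961188.

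The sequence before the transcription start was read from the RefSeq table for GRCm38.p6, in which 9 of the 10 genes have an entry. Shown are the 250 bases before the start of 4 genes that carry the contrasts below: Cldn5, the main sealing protein, at most 28.2 CPM on average outside the endothelium, Slco1a4 and Slco1c1, of which astrocytes shared the second only, and Mfsd2a, which endothelial cells shared with astrocytes and oligodendrocyte precursor cells (OPCs). Each runs 5′ to 3′ on the strand of its gene, and capitals mark matches on either strand to the letters searched, AGGAAG (the core bound by ETS factors), CTTTGA (TCF/LEF), AACAAT (SOX), GTAAACA (FOX), GGGCGG (the GC box) and TATAAA.
Cldn5, chr16:18776597-18776846, plus strand: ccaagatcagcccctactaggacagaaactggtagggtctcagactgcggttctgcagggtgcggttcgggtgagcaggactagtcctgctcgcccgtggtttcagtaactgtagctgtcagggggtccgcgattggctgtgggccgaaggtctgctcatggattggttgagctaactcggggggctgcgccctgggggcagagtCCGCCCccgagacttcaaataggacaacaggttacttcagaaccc
Slco1a4, chr6:141856221-141856470, minus strand: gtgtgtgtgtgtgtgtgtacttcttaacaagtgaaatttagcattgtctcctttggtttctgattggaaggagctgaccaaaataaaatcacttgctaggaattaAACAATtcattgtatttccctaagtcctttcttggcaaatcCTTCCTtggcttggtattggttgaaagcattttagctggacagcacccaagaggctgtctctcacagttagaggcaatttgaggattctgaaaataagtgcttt
Slco1c1, chr6:141524104-141524353, plus strand: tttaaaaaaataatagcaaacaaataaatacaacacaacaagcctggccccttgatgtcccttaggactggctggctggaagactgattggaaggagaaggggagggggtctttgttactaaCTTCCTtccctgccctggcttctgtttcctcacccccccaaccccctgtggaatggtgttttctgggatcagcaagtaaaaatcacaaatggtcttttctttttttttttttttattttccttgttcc
Mfsd2a, chr4:122961189-122961438, minus strand: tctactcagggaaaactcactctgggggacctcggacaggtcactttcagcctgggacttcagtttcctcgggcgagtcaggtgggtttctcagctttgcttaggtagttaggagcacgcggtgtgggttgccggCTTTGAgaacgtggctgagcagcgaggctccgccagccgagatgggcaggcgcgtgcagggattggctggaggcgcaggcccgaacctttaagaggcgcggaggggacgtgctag

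The capitals in the Cldn5 sequence are a GC box on the opposite strand, 45 bases before the start. The Slco1a4 sequence holds the SOX letters 145 bases and the ETS letters, on the opposite strand, 104 bases before the start. In Slco1c1 the ETS letters lie on the opposite strand 128 bases before the start, and in Mfsd2a the TCF/LEF letters lie 115 bases before it. Guanine and cytosine make up 59.6% of the Cldn5 and 61.6% of the Mfsd2a sequence, but 39.2% of Slco1a4 and 42.8% of Slco1c1, against a median of 52.4% over all 32841 upstream sequences. The 9 genes have 13 entries, and a gene was counted if any of its entries held the letters. The ETS letters were in 5 genes (Abcb1a, Abcg2, Ly6c1, Slco1a4 and Slco1c1) and 7 entries, the GC box in 4 genes and 6 entries. The TCF/LEF letters were in 2 genes (Abcb1a and Mfsd2a) and 2 entries, and the SOX, FOX and TATAAA letters in 1 each. The Abcb1a entry, which holds its ETS, TCF/LEF and FOX letters, lies at chr5:8566841-8567090, far before the annotated gene start at chr5:8660077. Of all upstream sequences, each counted as 1 entry, 29.5% hold the ETS letters, 32.7% the GC box, 13.8% the TCF/LEF letters, 12.4% TATAAA, 9.43% the SOX letters and 3.17% the FOX letters. A match is a description of the letters and not a bound site.

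Endothelial cells had the highest level of all 10 genes among 9 cell groups of the unsorted libraries, which besides the 4 above were smooth muscle, microglia, oligodendrocytes, OPCs and inhibitory neurons. The endothelial libraries overlapped with those of the next group for 0 of the 10. The share of all genes that behave in this way over the 9 groups was not counted. Libraries that did not overlap were common, at 52.4% of all genes against pericytes, 69.2% against astrocytes and 86.2% against excitatory neurons. For 8 genes the next group lay at 7.59% of the endothelial level or below, but Slco1c1 in astrocytes and Mfsd2a in OPCs came closer. In bulk sums of this kind, fewer expressing cells and less RNA per cell cannot be told apart, so the share of cells is given as well.

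**Figure D1:**
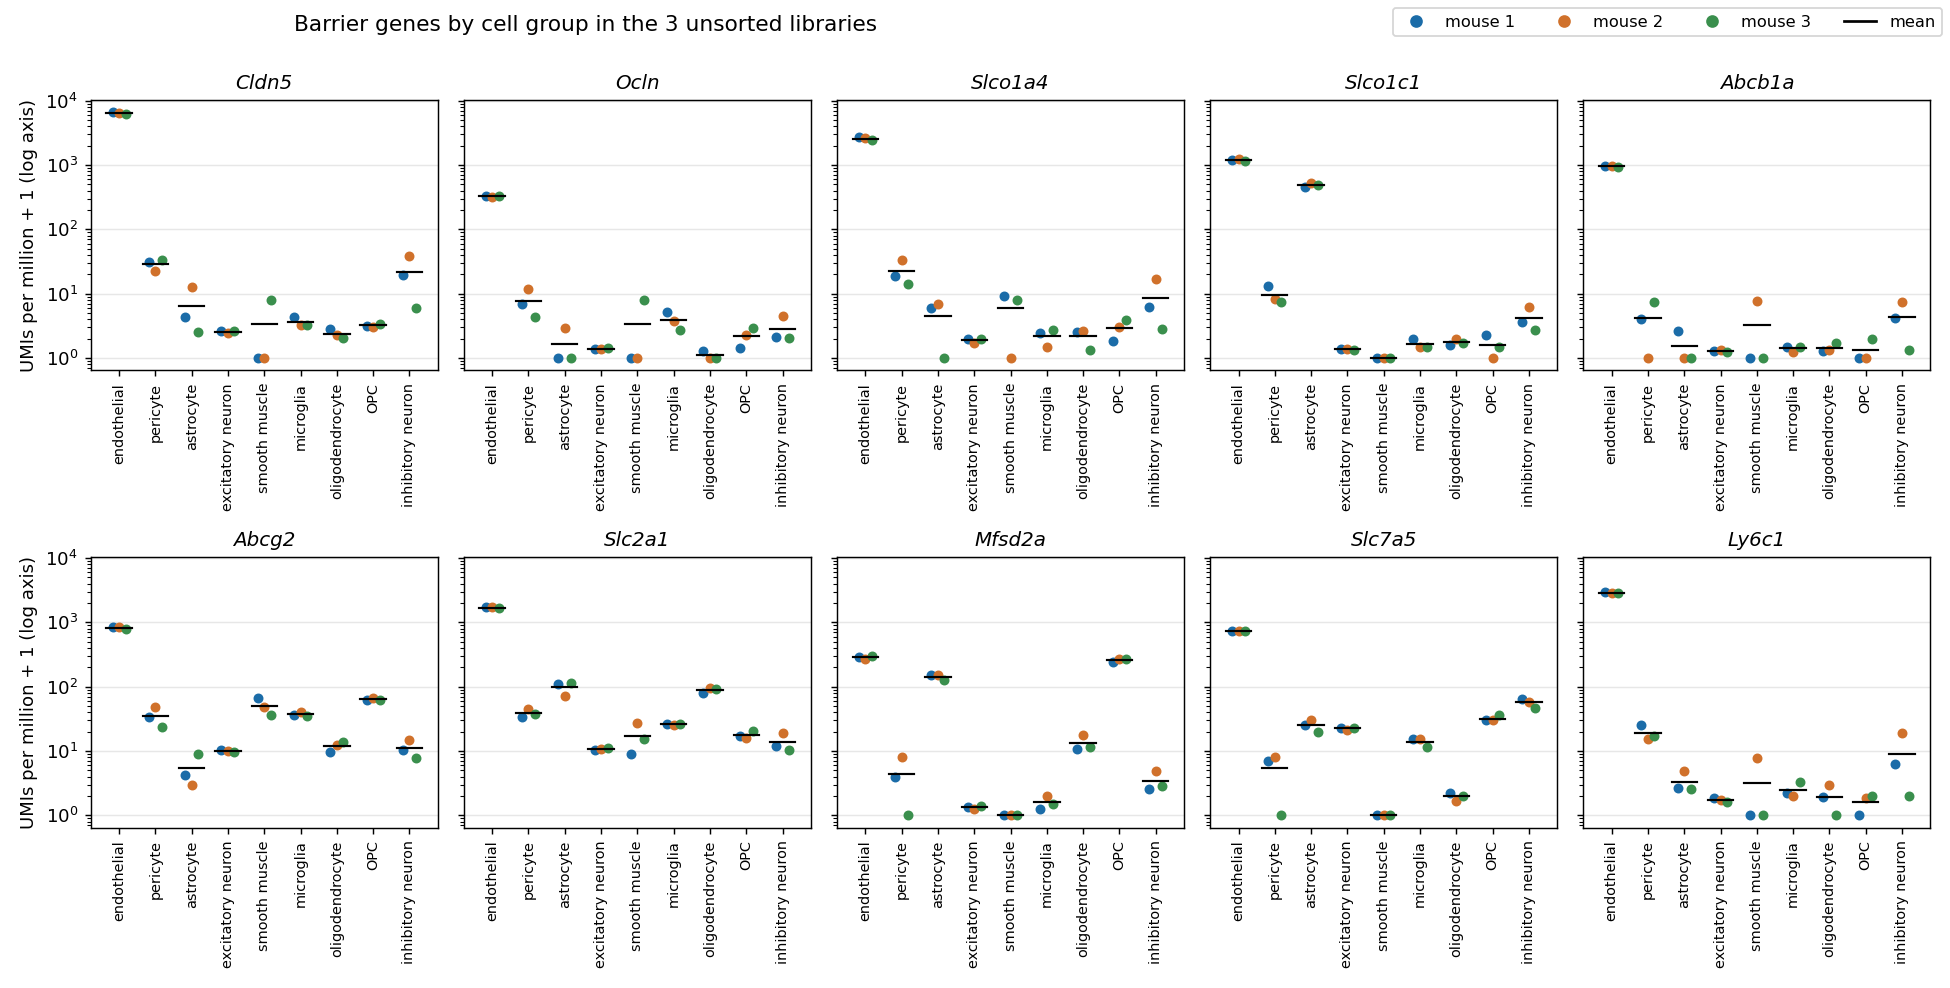
Level of each barrier gene in 9 cell groups, as CPM plus 1 on a log axis, with 1 point per unsorted library (mouse 1, 2 and 3) and a bar at their mean. Endothelial points are the highest in every panel, Slco1c1 also stands high in astrocytes (492 CPM), and Mfsd2a in OPCs (261 CPM) and astrocytes (142 CPM).

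Of the junction genes, Cldn5 stood at 6682, 6503 and 6310 CPM in endothelial cells of mouse 1, 2 and 3 (6498 ± 186, SD, n = 3). The pericyte libraries held 30.2, 21.7 and 32.8 CPM of Cldn5, and astrocytes 5.48 CPM on average, so that no endothelial library came near those of another group. Excitatory neurons were at 1.55 ± 0.114 CPM (SD, n = 3). After thinning, 99.2% of endothelial cells but 5.2% of pericytes, 0.9% of astrocytes and 0.3% of excitatory neurons had a Cldn5 UMI. Inhibitory neurons held 18.9, 38.0 and 4.94 CPM of Cldn5, an uneven spread in which the 5 cells with the most Cldn5 carried 74.4% to 94.2% of its UMIs.

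Ocln was measured at 329, 323 and 327 CPM in endothelial cells (326 ± 3.23, SD, n = 3), with all 3 libraries close together. Pericytes followed at 6.72 CPM and microglia at 2.95 CPM, with libraries of these last groups overlapping. The thinned share of endothelial cells with an Ocln UMI was 48.8%, against 1.1% of pericytes, and all astrocytes together held 1 Ocln UMI. A cell without a UMI at this depth may still express the gene.

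The organic anion carriers differed in where else they were found. Slco1a4 reached 2726, 2612 and 2433 CPM in endothelial cells (2590 ± 148, SD, n = 3), and the next groups were pericytes at 21.2 CPM and inhibitory neurons at 7.57 CPM. Among inhibitory neurons, the 5 cells with the most Slco1a4 carried 72.8% to 100% of its UMIs in a library. Slco1c1 reached 1204, 1235 and 1171 CPM in endothelial cells (1203 ± 32.4) and 451, 532 and 493 CPM in astrocytes (492 ± 40.6). The astrocyte level of Slco1c1 was thus 40.9% of the endothelial one, while pericytes held 8.62 CPM and smooth muscle 0 UMIs. With thinning, 87.0% of endothelial cells and 59.6% of astrocytes had an Slco1c1 UMI, whereas the shares for Slco1a4 were 95.6% and 0.5%. The related genes Slco1a5 and Slco1b2 stood at 0.14 and 4.54 CPM in endothelial cells.

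The efflux pumps were high in endothelial cells at 957, 975 and 937 CPM for Abcb1a (956 ± 18.8, SD, n = 3) and 834, 852 and 801 CPM for Abcg2 (829 ± 25.6). Abcb1a was close to the floor elsewhere, with 3 UMIs in all pericytes and 1 in all astrocytes. Abcg2 had a low but wider presence at 62.6 ± 2.73 CPM in OPCs, 49.1 ± 15.1 in smooth muscle, 36.4 ± 2.47 in microglia and 34.4 ± 12.0 in pericytes (SD, n = 3 each). The OPC and smooth muscle libraries overlapped. Thinned shares of cells with an Abcg2 UMI were 78.1% in endothelial cells, 13.2% in smooth muscle, 12.5% in OPCs and 7.5% in microglia, against 0.4% in astrocytes, which serve here as the low reference. The Abcb1a share was 83.1% in endothelial cells and at most 1.04% in every other group.

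Of the nutrient carriers, Slc2a1 stood at 1732, 1731 and 1651 CPM in endothelial cells (1705 ± 46.2, SD, n = 3). Astrocytes and oligodendrocytes came next with 97.0 ± 23.8 and 89.0 ± 7.92 CPM, which overlapped, followed by pericytes at 37.5 CPM. In neurons the glucose carrier with the higher level was Slc2a3 (GLUT3), a known neuronal carrier, which reached 113 CPM in excitatory neurons and 3.15 CPM in endothelial cells, while Slc2a1 stood at 9.66 CPM in excitatory neurons. Slc7a5 was measured at 738, 743 and 729 CPM in endothelial cells (737 ± 7.27), 56.0 ± 8.64 in inhibitory neurons, 31.1 in OPCs, 24.1 in astrocytes and 21.4 ± 0.982 in excitatory neurons. Levels of Slc7a5 in inhibitory neurons did not overlap those of OPCs, but those of OPCs, astrocytes and excitatory neurons followed closely and overlapped from group to group. Slc3a2, the heavy chain that LAT1 pairs with, was spread more evenly at 662 CPM in endothelial cells, 469 in astrocytes and 326 in pericytes.

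Mfsd2a had the smallest gap to another cell type. Endothelial cells stood at 286, 272 and 294 CPM (284 ± 11.5, SD, n = 3) and OPCs at 246, 266 and 271 CPM (261 ± 13.5). The lowest endothelial library was just above the highest OPC library, and the OPC level was 91.9% of the endothelial one. With cells of several gates kept, endothelial cells held 269.7, 267.0 and 272.2 CPM and overlapped the OPC libraries. Taking the UMIs of all 3 libraries together, the ratio was 1.09 with a 95% interval of 1.02 to 1.16, which covers counting error only. Astrocytes held 150, 151 and 124 CPM of Mfsd2a (142 ± 15.1), apart from both. Pericytes had 3 UMIs and smooth muscle 0. The thinned shares of cells with a UMI were 44.0% in endothelial cells, 37.1% in OPCs and 24.7% in astrocytes.

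Ly6c1 was at 2979, 2860 and 2860 CPM in endothelial cells (2900 ± 68.8, SD, n = 3), and no other group exceeded the 18.3 CPM of pericytes. Its last 400 transcript bases share 29.4% of their 50-base words with Ly6a, Ly6c2 and Ly6i, so reads could have been split among these genes or dropped, and its level is uncertain to that extent. Ly6c2 was at 1.29 CPM and Ly6a at 2195 CPM in endothelial cells. Abcb1a likewise shares 23.0% of such words with Abcb1b, which was at 1.57 CPM in endothelial cells. Abcg2 shares 0.737%, and the other 7 genes share 0.

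**Figure D2:**
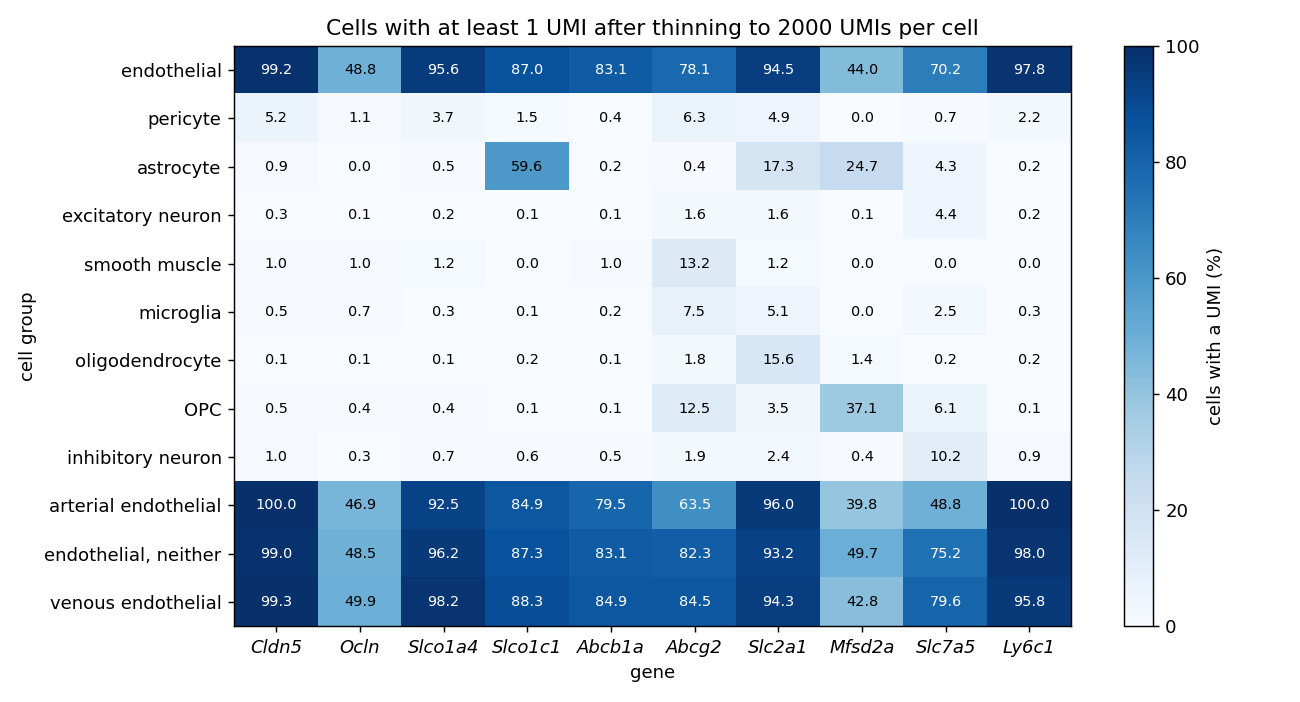
Percentage of cells with at least 1 UMI of each gene (columns) in each cell group (rows) after every cell was thinned to 2000 UMIs, as the mean of the 3 unsorted libraries. Endothelial shares run from 44.0% (Mfsd2a) to 99.2% (Cldn5), and outside the endothelial rows only Slco1c1 in astrocytes (59.6%), Mfsd2a in OPCs (37.1%) and Mfsd2a in astrocytes (24.7%) exceed 20%.

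The genes were also found together in single cells. A thinned endothelial cell held UMIs of a median of 8 of the 10 genes in each library, and 97.5% ± 0.449 of endothelial cells held 5 or more (SD, n = 3). Of pericytes, 81.0% ± 6.44 held none and 0.351% held 5 or more, and of excitatory neurons 91.6% held none. In astrocytes the median was 1 gene and 24.3% held none. In OPCs 50.1% held none, and the most that any OPC held was 3.

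Cldn5 was also read by the number of gate UMIs in a cell. In cells with 0 UMIs of Flt1 and Pecam1, Cldn5 stood at 2.98 ± 1.37 CPM, with 1 UMI at 77.0 ± 93.9, with 2 at 1834 ± 1603, with 3 at 3760 ± 767, with 4 or 5 at 7466 ± 986, with 6 to 9 at 7579 ± 262 and with 10 or more at 6383 ± 252 (SD, n = 3). The bins next to the limit hold few cells, 31 cells with 2 UMIs and 30 with 3, and their libraries spread widely. The bins of 4 or more UMIs lay between 6383 and 7579 CPM. Slc2a1 stood at 43.2 ± 2.82 CPM with 0 UMIs and 46.4 ± 3.60 with 1, then climbed. It held 419 ± 346 with 2, 771 ± 215 with 3, 1472 ± 134 with 4 or 5 and 1720 ± 79.0 with 10 or more. Mfsd2a was at 66.5 ± 5.46 CPM with 0 UMIs, 28.2 ± 22.8 with 1 and 100 ± 107 with 2. It then held 295 ± 201 with 3, 260 ± 17.0 with 4 or 5, 347 ± 8.43 with 6 to 9 and 278 ± 12.3 with 10 or more. Cells of the pericyte and astrocyte gates were left out of these bins, but OPCs were not.

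The comparison with pericytes asked whether the genes separate the endothelial lining from the mural cells that lie on the same capillaries. All 10 genes were higher in endothelial cells. They ranged from a log2 fold change of 4.74 ± 0.15 (SE) for Abcg2 to 8.28 ± 0.23 for Abcb1a, and 10 of 10 were called higher, which required an adjusted p below 0.05 together with a log2 difference of 1 or more. The highest adjusted p was 7.79e-13 (edgeR quasi-likelihood test, Benjamini-Hochberg over 10002 genes). The background was high, since 15.3% of all genes tested were called higher and 11.2% lower. The libraries of the 2 groups did not overlap for 10 of the 10, nor for 52.4% of all genes. The median log2 fold change of the 10 was 7.16, against 0.05 over all genes. Cldn5 differed by 7.97 ± 0.11, Ly6c1 by 7.42 ± 0.13, Slco1a4 by 7.09 ± 0.14 and Slc7a5 by 7.50 ± 0.24. Abcb1a and Mfsd2a had 3 UMIs each over all pericytes, and the ratios of the summed UMIs were 291 (95% interval 99.5 to 1411) and 86.5 (29.6 to 420).

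This separation rests on the treatment of cells that met both gates. Of all cells meeting the pericyte gate, 44.3% (295 cells) also met the endothelial gate but not the astrocyte gate, and Cldn5 in them was at 4451 ± 197 CPM (SD, n = 3). When all cells meeting several gates were kept in each group, Cldn5 in the 666 pericyte-gated cells was at 3276 CPM, 1 of the 10 genes (Ly6c1, log2 fold change 1.05) was called higher, and the other 9 differed by 0.77 to 0.89 with adjusted p of at most 1.06e-09. That setting called 728 genes in either direction, against 2657 in the main fit. Leaving out pericyte-gated cells with 3 or more Flt1 and Pecam1 UMIs lowers other endothelial transcripts in the pericytes by construction. With every gate raised to 6 UMIs, so that cells with 3 to 5 such UMIs stayed in, the pericytes held 115, 41.7 and 332 CPM of Cldn5, and the log2 fold changes fell to 5.30 for Cldn5, 5.13 for Ly6c1 and 3.61 for Abcg2, with 10 of 10 still called higher. The stricter gates called 2386 genes in either direction. Whether these cells are pairs of cells captured together was not tested, and no doublet caller was run.

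Other genes of the barrier, on lists fixed from their known roles, moved less uniformly. Of 20 further junction genes 15 were tested, of which 8 were higher and 2 lower in endothelial cells than in pericytes, with a median of 1.17. Lsr, a tricellular junction receptor, stood at 283 CPM in endothelial cells and had 0 UMIs in pericytes, at least 86.1-fold higher against a floor of 3 UMIs over all pericytes. Cdh5, the endothelial cadherin that is also on the marker list, differed by 7.14 ± 0.26, Jam2 by 6.02 and the junction scaffold Afdn by 3.42. Jam3 was lower by the fit, at -2.83 (30.1 against 235 CPM), as was Mpp7 at -1.43, and the uncalled gene with the largest value was Esam at 0.95. Of 27 further carriers 26 were tested, and 23 were higher and 0 lower, with a median of 4.68 (4.42 with genes at 0 UMIs set at their bound). Among them, Slc38a3, a glutamine carrier, and Slc35f2 had 0 UMIs in pericytes and were at least 65.3-fold and at least 19.3-fold higher, while the taurine carrier Slc6a6 differed by 7.02 ± 0.17 and the monocarboxylate carrier Slc16a1 by 6.71 ± 0.22. The organic anion carrier Slc22a8 was the exception by size, at 443 CPM in endothelial cells and 407 CPM in pericytes (0.27, not called).

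Of the 19 genes of Wnt signalling and barrier transcription factors, all tested, 10 were higher and 1 was lower than in pericytes, with a median of 1.36. Sox7 had 0 UMIs in pericytes and was at least 23.4-fold higher, and Sox17 had 3 UMIs there. The forkhead factor Foxq1 differed by 4.65, whereas the receptor gene Tnfrsf21 was lower at -2.48 and Lrp6, a Wnt co-receptor, was not called at 0.88. Of 9 genes of vesicles and leakage, 8 were tested, 5 were higher (Cav1, Cav2, Cavin1 and Cavin2, which form caveolae, among them) and 1 was lower, Lrp1 at -2.80. Ehd2, at 0.11, was not called. With cells of several gates kept, the numbers called higher fell to 0 of the junction genes, 0 of the carriers, 1 of the Wnt genes and 0 of the vesicle genes.

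**Figure D3:**
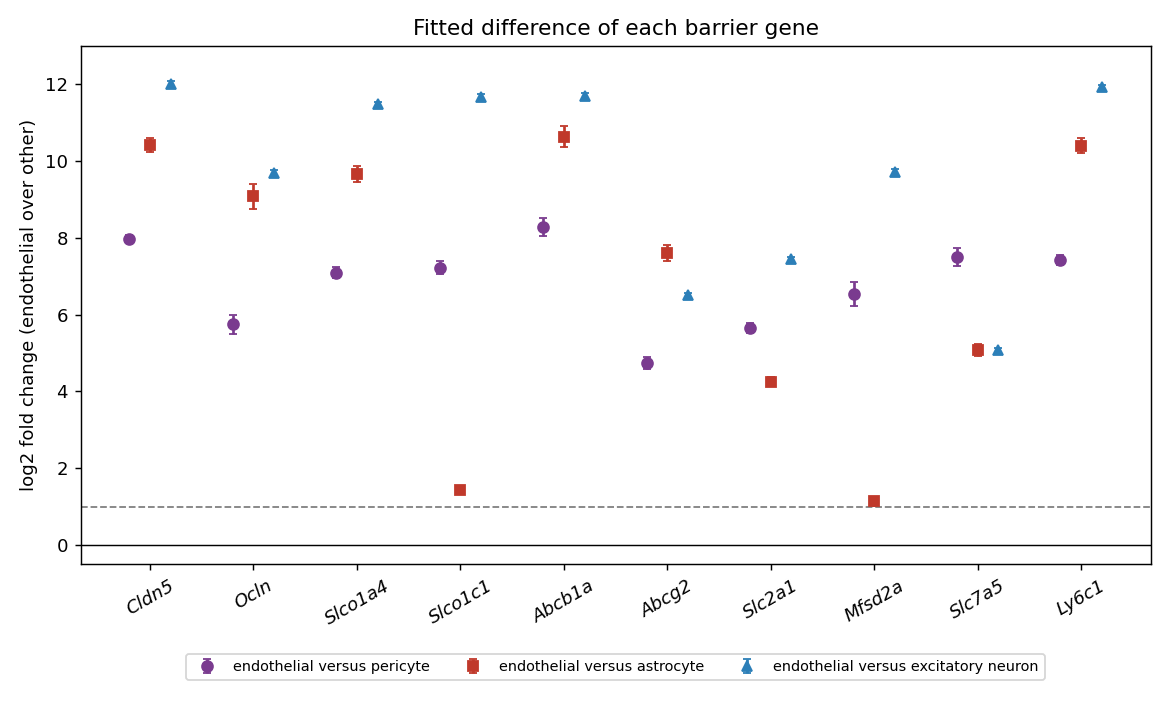
Log2 fold change of each barrier gene between endothelial cells and pericytes (circles), astrocytes (squares) and excitatory neurons (triangles), with bars of 1 SE from the edgeR fit over 3 libraries. The dashed line marks a log2 fold change of 1, and Slco1c1 (1.43) and Mfsd2a (1.14) against astrocytes lie nearest to it.

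Against astrocytes, whose end-feet cover the capillary, 10 of 10 genes were higher in endothelial cells, where 21.6% of the 10876 genes tested were called higher and 21.3% lower, and the libraries did not overlap for 10 of 10 (69.2% of all genes). The highest adjusted p was 7.79e-11 (edgeR). The genes fell into separate sizes. Cldn5 (10.42 ± 0.18), Ly6c1 (10.40), Slco1a4 (9.67) and Abcg2 (7.62) were nearly absent from astrocytes, Ocln and Abcb1a had 1 astrocyte UMI each, with pooled ratios of 576 (95% interval 103 to 22746) and 1686 (302 to 66601), and Slc7a5 and Slc2a1 differed by 5.08 ± 0.15 and 4.25 ± 0.12. Slco1c1 and Mfsd2a differed by only 1.43 ± 0.09 (adjusted p = 9.25e-16) and 1.14 ± 0.11 (adjusted p = 7.79e-11). The median of the 10 was 8.35, against 0.03 over all genes. With cells of several gates kept, Slco1c1 and Mfsd2a fell to 0.84 and 0.64 and 8 of the 10 were called higher. That setting called 3946 genes in either direction, against 4657 in the main fit.

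Of the other junction genes 15 were tested against astrocytes and 11 were higher and 1 lower, with a median of 1.82. The adhesion gene Esam was at least 456-fold and Lsr at least 166-fold higher, both with 0 astrocyte UMIs. Cdh5 had 2 and Cgnl1 3 UMIs in astrocytes, Jam3 was lower at -1.40, and Pard3 was not called at 0.84. Of 26 carriers 21 were higher and 1 was lower, with a median of 3.76. Atp10a, Slc35f2 and the riboflavin carrier Slc52a3 had 0 astrocyte UMIs and were at least 109-fold, 37.2-fold and 28.9-fold higher, the cationic amino acid carrier Slc7a1 differed by 7.77, and the cholesterol exporter Abca1 was lower at -1.27. Of 19 Wnt and transcription factor genes 18 were higher and 0 lower, with a median of 3.50 (3.21 with genes at 0 UMIs set at their bound), and the remaining gene, Tnfrsf19, stood at 0.00. Of 8 vesicle genes 6 were higher, led by Cavin2 (7.08), Cav1 (5.94), Ehd2 (5.93) and Cavin1 (5.85), and the lipoprotein receptor Lrp1 was lower at -2.24.

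Against the excitatory neurons 10 of 10 genes were higher in endothelial cells, with a background of 24.8% of 15595 genes called higher and 32.2% lower and with 10 of 10 not overlapping (86.2% of all genes), and the highest adjusted p was 1.76e-31 (edgeR). Cldn5 (12.01), Ly6c1 (11.92), Abcb1a (11.70), Slco1c1 (11.68) and Slco1a4 (11.48) had the largest log2 fold changes. Mfsd2a (9.71) and Ocln (9.69) followed, then Slc2a1 (7.45), Abcg2 (6.50) and Slc7a5 (5.09 ± 0.05). The median of the 10 was 10.6, against -0.21 over all genes. Junction genes were higher in 13 and lower in 2 of 18 tested, carriers in 25 and 0 of 27, Wnt and transcription factor genes in 18 and 0 of 19, and vesicle genes in 6 and 1 of 9. The members with the largest values were Lsr (11.44) and Cdh5 (11.12), Slc22a8 (10.51) and Slc39a8 (9.71) next to Slc52a3 with 1 neuronal UMI, Lef1 (11.76) and Sox17 (11.63), and Cavin1 (10.50) and Ehd2 (8.90). Plvap, the diaphragm protein of fenestrated and leaky vessels, was lower in endothelial cells (5 UMIs, 0.70 CPM) than in neurons (20.9 CPM) at -4.88, the tight junction genes Cgn and Cldn12 were lower at -4.23 and -1.02, and the pump gene Abcb1b was not called at -0.77.

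Of the 10 genes, Slc7a5, Abcg2 and Slc2a1 had clear levels in the excitatory neurons themselves, which varied among the authors' 7 subtypes. Slc7a5 ran from 17.1 ± 2.02 CPM in L5-Bcl6 and 17.4 ± 2.79 in L2/3-Calb1 to 32.2 ± 3.36 in L5-S100b (SD, n = 3), whose libraries at 29.3 to 35.9 CPM lay above those of the first 2 subtypes. Abcg2 ran from 1.56 ± 0.430 CPM in L5-Bcl6 to 10.8 ± 0.778 in L6-Syt6. Slc2a1 ran from 3.49 ± 1.29 CPM in L5-Htr2c to 16.2 ± 3.84 in L2/3-Calb1. These differences were not tested.

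The sorted library gave a view of neurons without vascular cells, since 0 of its cells met the endothelial, pericyte or astrocyte gate. In 51387792 UMIs of its 1603 excitatory neurons, Cldn5 and Abcb1a had 1 UMI each and Slco1a4, Slco1c1 and Ly6c1 had 0, which allows up to 0.0584 CPM. Unsorted excitatory neurons held 1.55 CPM of Cldn5, 0.892 of Slco1a4, 0.734 of Ly6c1, 0.360 of Slco1c1 and 0.280 of Abcb1a. Slc7a5 was at 30.4 CPM in sorted and 20.3 to 22.2 CPM in unsorted neurons, Slc2a1 at 9.73 and 9.25 to 10.2 CPM, and Abcg2 at 6.38 and 8.60 to 9.35 CPM. Of the remaining genes, Ocln had 12 UMIs (0.234 CPM, unsorted 0.388) and Mfsd2a 6 UMIs (0.117 CPM, unsorted 0.330). The sorted side is 1 library, so these differences have no test.

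**Figure D4:**
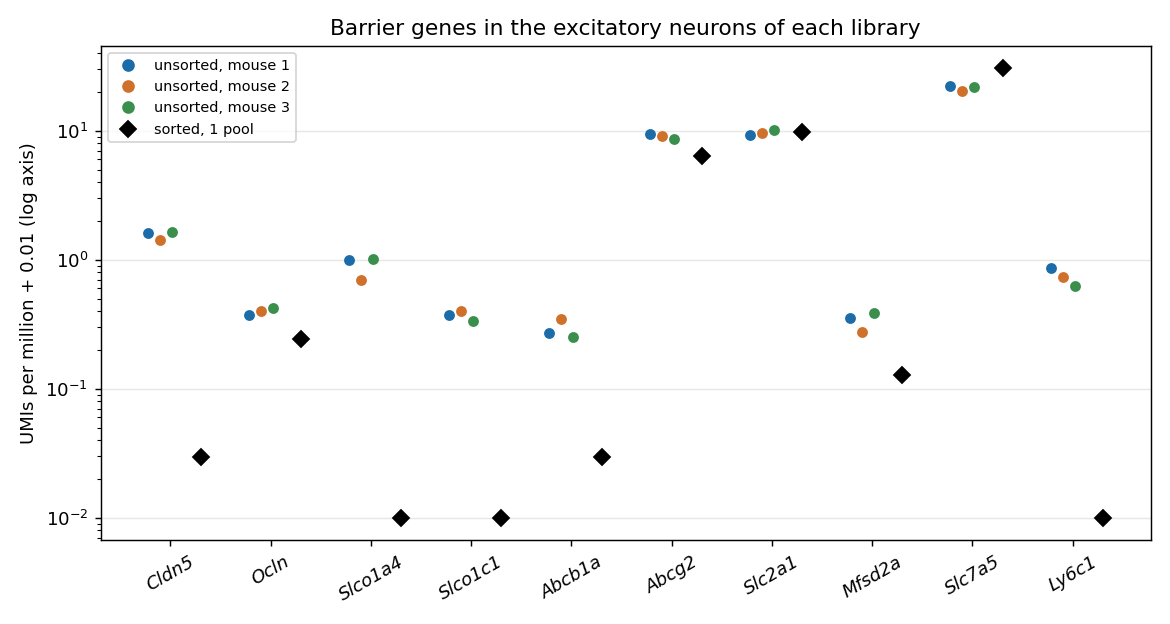
Level of each barrier gene in excitatory neurons of the 3 unsorted libraries (circles) and of the sorted pool (diamonds), as CPM plus 0.01 on a log axis. Slc7a5, Slc2a1 and Abcg2 lie between 6.38 and 30.4 CPM in all 4 libraries, while sorted Slco1a4, Slco1c1 and Ly6c1 lie at the bottom with 0 UMIs.

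Within the endothelium, cells were split by arterial genes (Bmx, Gkn3, Sema3g and Efnb2) and venous genes (Slc38a5, Nr2f2, Ackr1 and Il1r1), with at least 2 UMIs of the first set and 0 of the second, or the reverse. This gave 184 arterial and 323 venous cells, and 633 cells had 0 UMIs of both sets. The remaining endothelial cells fell in none of these groups. Slc7a5 stood at 426, 346 and 316 CPM in arterial cells against 905, 951 and 856 CPM in venous cells of mouse 1, 2 and 3. It was called lower in arterial cells, by -1.30 ± 0.10 (SE, adjusted p = 1.52e-24, edgeR over 6374 genes), and was the only 1 of the 10 past a log2 fold change of 1, where 2.17% of all genes were called lower and 3.25% higher. Cells without either set held 828, 910 and 937 CPM of Slc7a5, below the range of the venous libraries in mouse 1 and within it in mouse 2 and 3.

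Ly6c1 and Slc2a1 were higher in arterial cells, below a log2 fold change of 1. Ly6c1 stood at 4017, 4050 and 3871 CPM in arterial and 2330, 2223 and 2286 CPM in venous cells, a difference of 0.83 ± 0.06 (adjusted p = 3.60e-28), with cells of neither set between at 3127, 2895 and 2942 CPM. Slc2a1 stood at 2234, 2159 and 2206 against 1370, 1582 and 1523 CPM, a difference of 0.59 ± 0.07 (adjusted p = 7.15e-14). Slco1c1 was higher by 0.28 ± 0.07 (adjusted p = 0.00166), at 1386, 1531 and 1281 against 1174, 1200 and 1126 CPM.

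In the other direction, Cldn5 stood at 5512, 5089 and 5093 CPM in arterial and 8090, 7683 and 6878 CPM in venous cells, a difference of -0.50 ± 0.05 (adjusted p = 2.69e-17). Slco1a4 differed by -0.49 ± 0.06 (adjusted p = 7.15e-12) and Abcg2 by -0.57 ± 0.09 (adjusted p = 1.80e-08), with 704, 679 and 562 CPM of Abcg2 in arterial and 969, 1034 and 931 CPM in venous cells. Abcb1a differed by -0.28 ± 0.08 (adjusted p = 0.00738), but its adjusted p was 0.0796 without mouse 2 and 0.199 without mouse 3, and that of Slco1c1 was 0.0888 without mouse 2. Ocln (-0.25 ± 0.12, adjusted p = 0.179) and Mfsd2a (0.25 ± 0.13, adjusted p = 0.230) did not pass. At a lower limit of 0.5 on the log2 scale, Ly6c1 and Slc2a1 were called higher (6.24% of all genes) and Cldn5, Abcg2 and Slc7a5 lower (4.77%), and Cldn5 missed this limit without mouse 1 (-0.48) or without mouse 2 (-0.47). In all, 8 of the 10 had an adjusted p under 0.05 at any fold (13.8% of all genes) and 9 did not overlap between the 3 arterial and 3 venous libraries (26.1% of all genes).

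Mfsd2a had a different order. It stood at 368, 341 and 346 CPM in cells with neither set, above its 326, 258 and 281 CPM in arterial and its 238, 240 and 262 CPM in venous cells, and libraries of the last groups overlapped. The order is a description, since cells of neither set were not in the fit. These cells were also the shallowest, with median counts of 2420 to 2519 UMIs against 3813.5 to 4150 in arterial and 3423 to 5132.5 in venous cells. Their microglia markers summed to 902 to 1489 CPM, against 109 to 840 in arterial and 121 to 660 in venous cells. Oligodendrocyte markers summed to 854 to 1553 CPM, against 38.4 to 665 and 391 to 851. Pericyte and smooth muscle markers were not highest there. The part of these transcripts was not tested.

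**Figure D5:**
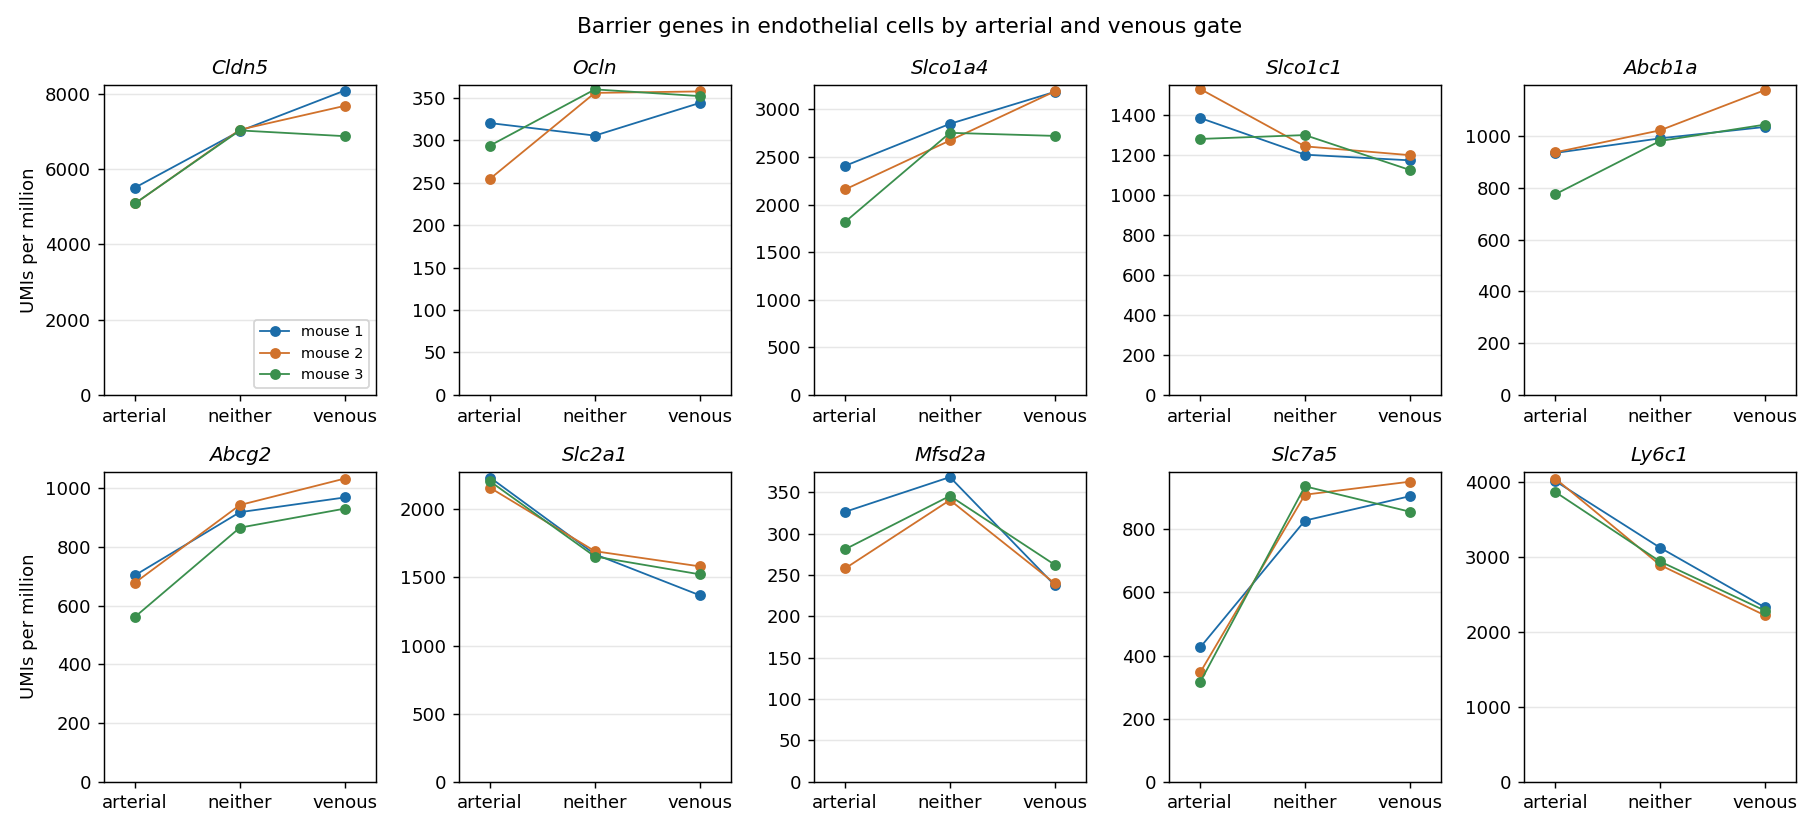
Level of each barrier gene, in CPM on axes that start at 0, in endothelial cells with arterial genes, with neither set and with venous genes, with 1 line per unsorted library. Slc7a5 is lowest in arterial cells (316 to 426 CPM), Ly6c1 falls from arterial to venous cells in all 3 libraries, and Mfsd2a is highest in cells of neither set.

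Of the other carriers, 26 were tested between arterial and venous cells and 8 were lower and 0 higher in arterial cells, with a median of -0.69 against -0.01 over all genes. Slc16a1, which carries lactate and ketone bodies, stood at 164 CPM in arterial and 923 CPM in venous cells (-2.46 ± 0.12). The zinc and manganese carrier Slc39a8 differed by -1.75 ± 0.22, Slc38a3 by -1.74 ± 0.16 and the transferrin receptor Tfrc by -1.71 ± 0.13. Slc22a8, Slc35f2, the iron exporter Slc40a1 and Slc52a3 were also lower, by -1.54 to -1.26, and the uncalled carrier with the largest value was Slc7a1 at -0.97. Of 13 junction genes, 18 Wnt and transcription factor genes and 8 vesicle genes tested, 0 were called in either direction, and the largest value of a vesicle gene was Ehd2 at 0.71. Smooth muscle markers summed to 78.1 to 259 CPM in arterial cells against 1.47 to 1.83 CPM in venous cells, and pericyte markers to 2287 to 3079 against 1342 to 2833 CPM. Their part in these differences was not tested.

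Over the 27 sums of 9 cell groups and 3 libraries, the gene most like Cldn5 in log2(CPM + 1) was Ctla2a (Pearson r = 0.971), followed by Adgrl4 and Mecom, of 12775 genes compared. The same 3 genes led for Ly6c1. Slco1a4 was most like Tek (0.972), which codes for the angiopoietin receptor, and Ocln was most like Ly6a (0.971). Slc2a1 was most like Prom1 (0.968) and Abcb1a most like Vil1 (0.963). Abcg2 was most like Klf6 (0.951), Mfsd2a like Nhsl1 (0.948), with Slc38a3 in the third place, and Slc7a5 like Aqp11 (0.917), with Lrp8 in the third place. These values describe sums that share libraries and the contrast of endothelial cells with the rest, and have no test.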

How the data were processed

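The deposited matrices hold raw UMI counts per gene and cell, which the authors made with Cell Ranger from 10x 3′ v3 libraries against mm10, and the deposited table of neurons names the authors' excitatory subtypes, beside each cell's total count and the percent of mitochondrial counts that the authors computed. From there, cells with 500 to 8000 genes, 1000 to 60000 UMIs and under 20% mitochondrial counts were kept, as in the study's methods. The 10 genes, the cell gates and the gene lists were chosen with earlier results of these data known. All 10 genes are named, and of each further list the called genes with the largest changes (up to 4) and the uncalled gene with the largest value, and genes among the 3 most like each of the 10. Some genes that this rule names are not reported here. UMIs were summed per library and group, without the viral feature, and tested in edgeR 4.0.16 (R 4.3.3, TMM, filterByExpr, quasi-likelihood, library as block because both groups come from 1 mouse, a pair of groups per fit). Gate genes stayed in the sums and the fit, and were left out of its results before the p-values were adjusted. Correlations of same-numbered deviations were 0.0085 to 0.38. On simulated data 99% to 100% of 200 changed genes were recovered, with 0 to 6 false calls per comparison. Ratios of UMIs have exact Clopper-Pearson 95% intervals. Alternatives included DESeq2 1.42.0. PCR copies were collapsed by UMI, so intervals cover counting error only.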

Additional observations from a re-analysis of the deposited data

Results flagged for a closer look

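Cells of the sorted library entered no test, and 5 of the 10 genes were above the limit of 0.0584 CPM that 0 UMIs would allow in its excitatory neurons. Slc7a5 was at 30.4 CPM there, above all 3 unsorted libraries. Slc2a1 was at 9.73 CPM, inside the range of the unsorted libraries. Abcg2 was at 6.38 CPM, below that range. Ocln was at 0.234 CPM and Mfsd2a at 0.117 CPM, both below their unsorted ranges. The groups hold 3 libraries or fewer, so no test for an outlying sample was made.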

How the results depend on the processing

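With cells of several gates kept, the pericyte fit called 728 genes in place of 2657 and 1 of the 10 barrier genes in place of 10. Between arterial and venous cells, 345 genes were called, against 179 with DESeq2, 702 at a log2 fold change of at least 0.5 and 146 with thinned cells. At 0.5, 2 barrier genes (Slc2a1 and Ly6c1) were called higher and 3 (Cldn5, Abcg2 and Slc7a5) lower. Leaving out 1 library gave 2423 to 2618 called genes against pericytes, 4648 to 4804 (4657 with all) against astrocytes, 8335 to 8387 (8896) against neurons and 325 to 373 for arterial cells. Without the replicate block, counts were 2683, 4657, 8943 and 341, and Abcb1a between arterial and venous cells had an adjusted p of 0.061. Of the values of single barrier genes, 141 of 150 alternatives kept their call against pericytes and 9 were weaker, 148 of 150 against astrocytes with 2 weaker, 150 of 150 against neurons, and 136 of 140 between arterial and venous cells with 4 stronger, and 0 reversed. Depth limits genes with few UMIs in a group, such as Ocln and Abcb1a outside the endothelium and Mfsd2a in pericytes and smooth muscle. The causes of these changes were not tested.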
